A study of Mus musculus with 4 samples.

Results

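Nestin (Nes), desmin (Des), vimentin (Vim), lamin A/C (Lmna) and lamin B1 (Lmnb1) are 5 of the 8251 genes that were represented by a probe set with a single gene symbol on the mouse array. They were found by symbol in the platform's gene table, which gave 7 of the 10833 single-symbol probe sets, namely 2 for Nes, 2 for Lmna and 1 for each of the others. All 7 passed the filter on dim probe sets. The series holds 4 arrays hybridised with total RNA from murine skeletal muscle and is titled for the neuromuscular junction, where a motor nerve meets its muscle fibre. Array titles carry the code J (replicates 1a and 1c) or NJ (replicates 1a and 1d), and all 4 share the code Ctr and a time of 0 h. The codes are not spelled out in the labels and are used here as given. The labels name no strain, genotype, age, muscle or treatment, and they do not say whether the arrays came from separate or pooled animals, so the spread between arrays may be technical.

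Intermediate filament proteins share a central coiled-coil rod and assemble in the cytoplasm or under the nuclear membrane. Desmin ties the Z-discs of neighbouring myofibrils to each other and to the fibre membrane and is the main cytoplasmic filament of mature muscle. Vimentin is typical of fibroblasts, endothelium and other mesenchymal cells and of immature muscle. Nestin has a head too short to assemble alone and builds mixed filaments with vimentin or desmin. In adult rodent muscle it is known from the region under the neuromuscular junction, from the myotendinous junction and from regenerating fibres, and elsewhere from neural progenitors and from endothelial, Schwann and satellite cells. Lamins A/C and B1 line the inner nuclear membrane, B-type lamins keeping a farnesyl anchor in that membrane.

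RefSeq (GRCm38.p6) promoter windows, from 250 bases before to 50 bases after the start of each gene, were at hand for 4 of the 5 genes, all but Lmnb1. Those of Nes and Vim are shown because both genes had higher signals on both J arrays (Nes at its brighter probe set), and that of Des because it is the remaining cytoplasmic filament gene. The windows lie at chr3:87970843-87971142 for Nes, chr2:13574061-13574360 for Vim and chr1:75360042-75360341 for Des, all on the plus strand. They were searched on both strands for the N-box core CCGGAA, known from promoters of genes transcribed at the synapse, and for the E-box CANNTG, the site of myogenic factors. Capitals mark these matches.
Nes: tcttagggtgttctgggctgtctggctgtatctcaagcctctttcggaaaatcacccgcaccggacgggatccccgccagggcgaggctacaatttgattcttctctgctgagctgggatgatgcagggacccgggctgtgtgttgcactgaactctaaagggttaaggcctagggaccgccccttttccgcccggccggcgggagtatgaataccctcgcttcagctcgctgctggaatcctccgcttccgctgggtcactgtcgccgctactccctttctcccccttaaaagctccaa
Vim: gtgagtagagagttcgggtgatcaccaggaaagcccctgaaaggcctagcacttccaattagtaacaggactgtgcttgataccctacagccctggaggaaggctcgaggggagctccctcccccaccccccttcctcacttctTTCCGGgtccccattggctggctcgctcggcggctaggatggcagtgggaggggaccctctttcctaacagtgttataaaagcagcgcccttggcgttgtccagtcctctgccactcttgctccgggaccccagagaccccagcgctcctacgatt
Des: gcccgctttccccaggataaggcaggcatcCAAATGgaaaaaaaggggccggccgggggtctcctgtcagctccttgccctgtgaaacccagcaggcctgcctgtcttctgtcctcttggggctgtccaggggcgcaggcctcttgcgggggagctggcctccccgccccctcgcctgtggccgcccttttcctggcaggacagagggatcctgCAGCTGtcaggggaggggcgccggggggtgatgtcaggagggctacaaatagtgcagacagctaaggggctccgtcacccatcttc
The Nes window held no match to either motif. The Vim window held 1 N-box core, on the minus strand, whose first base lay at position -106 from the start, and no E-box. The Des window held 2 E-boxes, CAAATG at -220 and CAGCTG at -36, and no N-box core. Lmna has 2 windows in that table, both on the minus strand: 1 at chr3:88493263-88493562 held 3 N-box cores, of which 2 on opposite strands overlap, and 1 at chr3:88503303-88503602 held none. Of all 32851 windows of this length, 14.9% held an N-box core and 72.3% an E-box. The box TATAAA, held by 13.6% of them, stood in the Vim window at -32 and in none of the Nes, Des or Lmna windows. These matches describe letters and were not tested as sites.

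Signals are given as deposited. Differences are J minus NJ of quantile-normalised log2(signal + 32), a scale that understates the change of dim genes, with the standard error that limma gave from 2 arrays a group. The difference is also given for the 1a pair (J 1a minus NJ 1a) and the 1c/1d pair (J 1c minus NJ 1d). The members were chosen by name with the J and NJ signals of these arrays known, Nes for its higher J signal at the brighter probe set, so their differences are a description and carry no test. With 2 arrays a group, the smallest two-sided p of an exact permutation test is 0.333. Array J 1c stood apart in its brightest signals. Its highest signal was 41086, against 231943 on J 1a, 184184 on NJ 1a and 125534 on NJ 1d, and the 10 muscle fibre markers (such as Ckm, Acta1 and Myh4) summed to 197932 on J 1c and 1064691 on J 1a, against 866161 on NJ 1a and 653383 on NJ 1d. The markers were bright on every array, which matches the labelled tissue. The 1a columns carry full digits and the others are rounded to 1 decimal, so a number format, which coincides with the label, splits each group.

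Nes was the member with the largest difference, and it showed at 1 of its 2 probe sets. The brighter one, 103549_at, had signals of 5261 and 3308 on J 1a and J 1c, against 831 and 1148 on NJ 1a and NJ 1d. Both J arrays thus lay above both NJ arrays, with the lower J signal well clear of the higher NJ signal. On the log2 scale the group means were 12.07 ± 0.59 in J and 9.98 ± 0.38 in NJ (SD, n = 2 each), a difference of 2.09 ± 0.45 or 4.26-fold. Of the 9316 probe sets tested, 43 had a difference at least as large, this one included. The difference was 2.78 in the 1a pair and 1.40 in the 1c/1d pair. With both J arrays above both NJ arrays, any pairing gives a positive sign. Leaving out 1 array at a time gave 1.71 without J 1a, 1.84 without NJ 1a, 2.30 without NJ 1d and 2.50 without J 1c.

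The dimmer Nes probe set, 161829_at, showed no such split. Its signals were 140 and 142 on the J arrays, against 144 and 133 on the NJ arrays, and the groups overlapped. Its difference was -0.05 ± 0.75, and 0.02 on the deposited scale. In brightness it stood at percentile 29.7 of all probe sets that are not controls, against percentile 89.5 for the brighter one. Which stretch of the nestin transcript each probe set reads is not given in the files used here, and why they disagree was not tested.

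**Figure D1:**
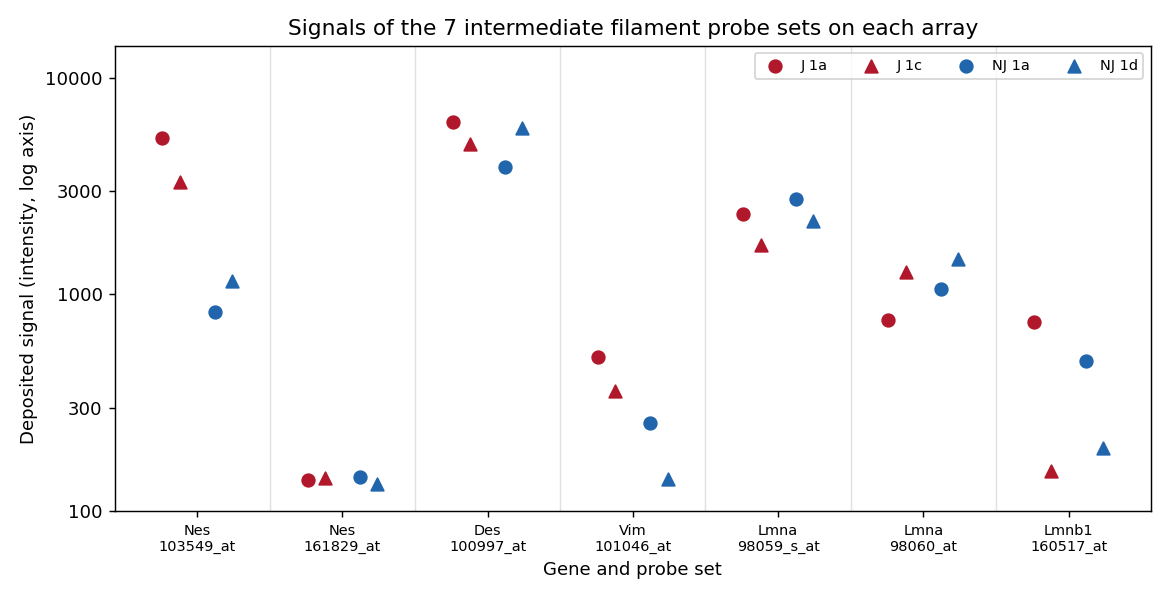
Deposited signal (log axis) of each of the 7 probe sets on the 4 arrays; each point is 1 array, red for J and blue for NJ, circles for label 1a and triangles for 1c or 1d. The J points lie above the NJ points for Nes 103549_at (3308 and 5261, against 831 and 1148) and for Vim, and overlap with them for the other 5 probe sets.

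Vim was the other member whose groups did not overlap. Its signals were 515 and 359 on J 1a and J 1c, against 254 and 140 on NJ 1a and NJ 1d. Both J arrays were again the higher ones. The log2 means were 8.83 ± 0.17 in J and 7.82 ± 0.22 in NJ (SD, n = 2 each), a difference of 1.01 ± 0.75 or 2.01-fold. The standard error exceeds the spread of these arrays because limma draws the variance of each probe set toward that of others of like brightness. The difference of Vim was nearly the same in both pairs, 0.97 in the 1a pair and 1.04 in the 1c/1d pair, and lay between 0.82 and 1.19 when any 1 array was left out. The probe set was of middling brightness, at percentile 49.1.

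Des, the filament of the Z-disc, had overlapping groups. Its signals were 6236 and 4958 on J 1a and J 1c, against 3870 and 5870 on NJ 1a and NJ 1d. The highest signal was on a J array and the lowest on an NJ array, but NJ 1d was brighter than J 1c. The log2 means were 12.48 ± 0.35 in J and 12.18 ± 0.28 in NJ (SD, n = 2 each), a difference of 0.30 ± 0.37. The pairs differed in sign, with 0.74 in the 1a pair and -0.15 in the 1c/1d pair.

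Lmna, which encodes the lamins of differentiated cells, had negative differences at both of its probe sets, each with overlapping groups. At 98059_s_at the signals were 2348 and 1695 on J 1a and J 1c, against 2741 and 2179 on NJ 1a and NJ 1d. At 98060_at they were 763 and 1267 on the J arrays, against 1056 and 1463 on the NJ arrays. Within each pair the J array was the lower one at both probe sets. The differences were -0.29 ± 0.41 at the first (-0.18 in the 1a pair, -0.39 in the 1c/1d pair) and -0.39 ± 0.50 at the second (-0.50 and -0.27 in the same order of pairs). Leaving out any 1 array kept them within -0.60 to 0.01 and -0.73 to -0.03, so the first changed sign, at 0.01 without J 1c.

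Lmnb1 varied more between replicates than between groups. Its signals were 746 and 153 on J 1a and J 1c, against 490 and 196 on NJ 1a and NJ 1d. Both extremes were J arrays. The log2 means were 8.61 ± 1.32 in J and 8.51 ± 0.62 in NJ (SD, n = 2 each), a difference of 0.10 ± 0.86 that was 0.59 in the 1a pair and -0.40 in the 1c/1d pair. It was -0.84 without J 1a, -0.34 without NJ 1d, 0.56 without NJ 1a and 1.003 without J 1c, so its sign rests on single arrays.

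Across the table, limma with Benjamini-Hochberg adjustment called 0 of 9316 probe sets at an adjusted p under 0.05 (0%), and 198 had an unadjusted p under 0.05 (2.13%). Both J arrays lay above both NJ arrays for 2 of the 7 member probe sets and below them for 0, where 13.6% of all tested probe sets lay above and 12.9% below. With a term for the number format in the fit, which leaves 1 residual degree of freedom, limma called 4 probe sets higher (0.0429%) and 4 lower (0.0429%). The brighter Nes probe set was among those called higher in that fit, and no other member probe set was called. Since this contrast was known when the members were proposed, nothing is read from these counts or from that call.

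**Figure D2:**
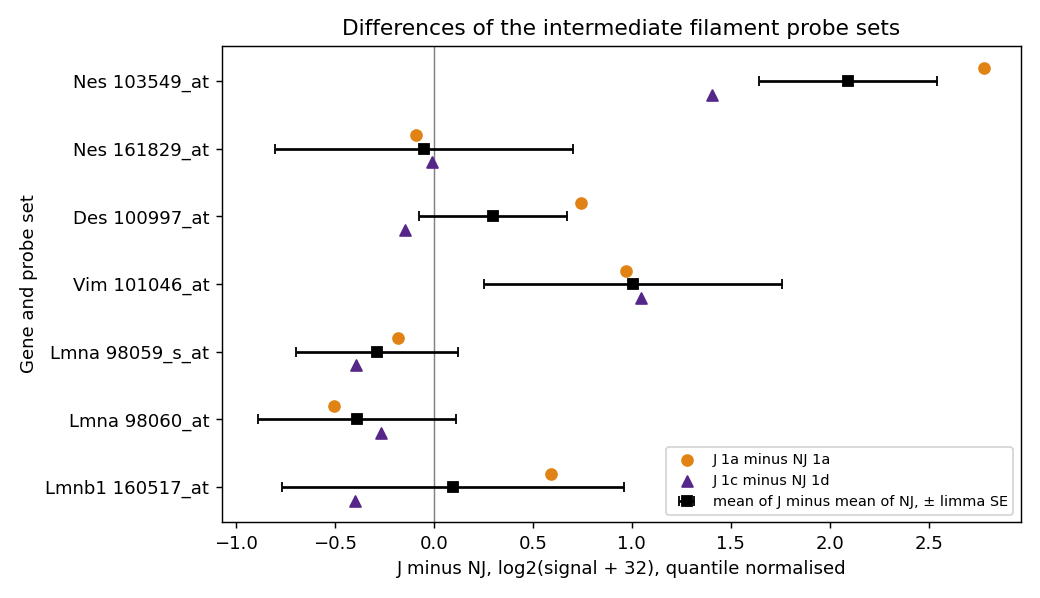
Difference of J minus NJ on the log2(signal + 32) scale after quantile normalisation for each probe set; squares with bars are the group difference ± limma standard error, circles are J 1a minus NJ 1a and triangles J 1c minus NJ 1d. Both pairs are above 0.9 for Nes 103549_at and Vim, both are below 0 for Lmna, and the pairs differ in sign for Des and Lmnb1.

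The number-format split gave a contrast that did not enter the choice of the members, examined here after the data were seen. The full-digit arrays are J 1a and NJ 1a, and the rounded ones J 1c and NJ 1d. Lmnb1 was higher on both full-digit arrays, by 1.37 ± 0.58 (limma, adjusted p = 0.417). The Lmna probe sets differed in opposite directions, with 98059_s_at higher on both full-digit arrays (0.48 ± 0.30, limma adjusted p = 0.545) and 98060_at lower on both (-0.61 ± 0.37, limma adjusted p = 0.541). The dimmer Nes probe set also lay lower on both full-digit arrays, with a difference of -0.34 ± 0.58 (limma, adjusted p = 0.834), while the brighter one (0.15 ± 0.90), Vim (0.28 ± 0.69) and Des (0.05 ± 0.32) overlapped between formats. In that contrast limma called 0 of 9316 probe sets at an adjusted p under 0.05 (0%), although 1119 had an unadjusted p under 0.05 (12%). Of all tested probe sets, 23.2% were higher on both full-digit arrays and 22.6% lower, so 2 higher and 2 lower among 7 is near the rate of the whole table.

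Set against the other members on the same array, the brighter Nes probe set differed between J and NJ by more than each of them. The change between groups in the log2 ratio of Nes to a second gene shows unequal change of the pair. It depends somewhat on the scale, the change for Vim lying between 1.0004 and 1.19 over the scalings and pseudocounts tried. The ratio to Des was 1.79 higher in J than in NJ, with 2.04 in the 1a pair and 1.55 in the 1c/1d pair. The ratio to Lmna, at its brighter probe set, was 2.38 higher in J, with 2.96 and 1.80 in the same order of pairs. The ratio to Lmnb1 was 1.99 higher in J, with 2.19 and 1.80. The ratio to Vim was 1.09 higher in J, but 1.81 in the 1a pair and 0.36 in the 1c/1d pair, so Vim followed Nes most closely in the 1c/1d pair. For all 4 ratios both J arrays lay above both NJ arrays. All 4 share the Nes probe set that was chosen for its higher J signal, so they are not separate observations. Against the mean of the other 4 genes, Nes was 1.81 higher in J, with 2.25 and 1.38 in the 2 pairs. When both probe sets of a gene were averaged, that value was 0.75 and the ratio of Nes to Vim was 0.02 higher in J.

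**Figure D3:**
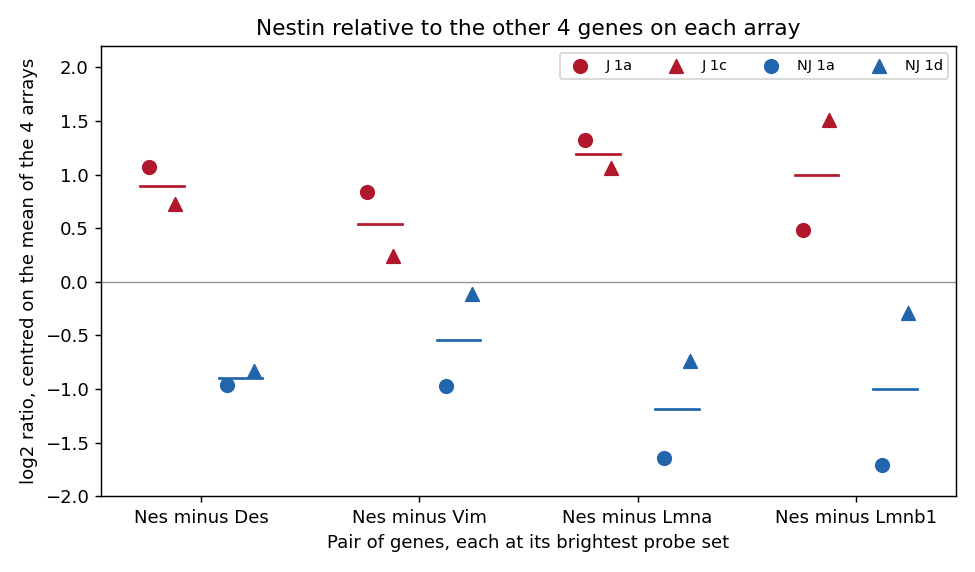
Log2 ratio of Nes to Des, Vim, Lmna and Lmnb1 on each array, each gene at its brightest probe set and each ratio centred on its mean over the 4 arrays; points are arrays, short lines are group means of 2 arrays. J arrays lie above NJ arrays for every ratio, with the smallest gap for Vim (group means 1.09 apart) and the largest for Lmna (2.38 apart).

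The probe sets with the pattern most like Nes came from genes outside the filament family. Likeness was the root mean square difference over the 4 arrays between log2 values centred on their own mean, over 8294 single-symbol probe sets tested other than 103549_at. Nfatc1, a transcription factor activated by calcineurin, was closest at 0.12, with signals of 448 and 221 on the J arrays, against 37.4 and 38.4 on the NJ arrays. C1ra, a protease of the complement system, followed at 0.13 with 664 and 278 on the J arrays, against 82.9 and 65.4 on the NJ arrays. Both were brighter on J 1a than on J 1c, as Nes was. On both NJ arrays Nfatc1, C1ra and Ppil2 lay below the brightness cut of 7.22 (log2) and passed the filter on their mean through the J arrays, so their distances and order rest on NJ signals that may be background. Ppil2, a cyclophilin-like protein, stood at 0.13, Th, the tyrosine hydroxylase of catecholamine synthesis, at 0.13 and Mucl1 at 0.16. Th lay below that cut on NJ 1a (6.73) and above it on NJ 1d (7.44). Mucl1 lay above it on both NJ arrays, but only just on NJ 1a (7.23). The NJ 1a signals of Th and Mucl1 may therefore be background too. Of the other members, Vim came nearest at 0.66, at rank 342 among these probe sets, followed by Des at 0.91, Lmnb1 at 1.17 and Lmna at 1.23.

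The rest of the intermediate filament family gave no call. Of 42 listed genes, 38 had a probe set and 25 passed the brightness filter, of which 0 passed limma in either direction (adjusted p under 0.05, 0% of all probe sets tested). Their median difference was -0.12, with 9 positive and 16 negative, against a median of -0.01 over all 6773 genes tested. Both J arrays lay above both NJ arrays for 3 of the 25 (12%) and below for 3 (12%), where the share over all genes was 13.4% and 13.2%. The median was 0.27 without J 1c and 0.16 without NJ 1a.

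Among the neuronal filament genes, which mark axons, none had separate groups at a tested probe set. Prph, peripherin of peripheral neurons, had signals of 823 and 48.6 on the J arrays, against 78.1 and 145 on the NJ arrays, a difference of 0.93 ± 1.09 with J 1a alone far above the other arrays. Nefl, the light neurofilament chain, had 273 and 36.7 on the J arrays, against 168 and 213 on the NJ arrays (-0.67 ± 0.87). Nefh, the heavy chain, had 717 and 113 on the J arrays, against 300.5 and 383 on the NJ arrays (-0.15 ± 0.90). For each of these 3 genes both the highest and the lowest signal were on J arrays. Nefm and Ina were too dim to test. Gfap, the filament of astrocytes and of non-myelinating Schwann cells, differed by -0.89 ± 0.93 with opposite signs in the pairs (-2.72 in the 1a pair, 0.94 in the 1c/1d pair). Lmnb2, the gene of lamin B2, had 250.3 and 102 on the J arrays, against 376 and 55.1 on the NJ arrays (-0.05 ± 0.88). Synm, the muscle filament protein synemin, had no probe set named for it here.

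Keratins, the filaments of epithelia, made up 19 of the 25 tested genes, with 8 positive and 11 negative differences. Krt8 and Krt18, the pair of simple epithelia, differed by -0.61 ± 1.13 and 0.06 ± 0.84, and Krt19 was too dim to test. Krt17 and Krt2 were named after their values were seen, as the ends of the range. Krt17 had signals of 2060 and 1245 on the J arrays, against 695 and 478 on the NJ arrays at 161496_r_at, a difference of 1.39 ± 0.51, while its other 2 probe sets were too dim to test. Krt2 differed by -1.21 ± 0.78, with -2.36 in the 1a pair and -0.05 in the 1c/1d pair.

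Cytoplasmic partners were balanced around 0. The list holds linkers, Z-disc proteins and chaperones of desmin filaments, and also genes not specific to them, such as Jup, Ppl, Mtm1 and Cdk5r1. Of 25 listed genes 17 had a probe set and 16 were tested, with 8 positive and 8 negative, a median of 0.04 and 0 passing limma in either direction. The median was -0.14 without J 1a and -0.05 with median centring. Dtna, the dystrobrevin of the dystrophin complex, was 1 of the 16 with both J arrays above both NJ arrays (6.25%, against 13.4% of all genes tested). Its signals were 2251 and 1610 on the J arrays, against 1023 and 1162 on the NJ arrays (0.78 ± 0.44). A second Dtna probe set, too dim to test, had overlapping groups and a difference of -0.007. Dsp, desmoplakin, which anchors filaments at desmosomes, had 26.0 and 127 on the J arrays, against 171 and 264 on the NJ arrays (-1.39 ± 0.87). Its J mean of 6.57 lay below the brightness cut of 7.22 (log2). It passed the filter through the NJ arrays (mean 7.95), so its J signals may be background. A second Dsp probe set was too dim to test and had overlapping groups. Actn2, the Z-disc alpha-actinin, had 350.3 and 517 on the J arrays, against 848 and 575 on the NJ arrays (-0.77 ± 0.64). Dsp and Actn2 were the 2 genes with both J arrays below both NJ arrays (12.5%, against 13.2% of all genes tested). Plec, plectin, the main linker of desmin to other structures, differed by -0.07 ± 0.49 and Cryab, the desmin chaperone alpha-B-crystallin, by 0.38 ± 0.41, both with overlapping groups. A second Cryab probe set, too dim to test, went the other way at -1.25, with -1.87 in the 1a pair and -0.62 in the 1c/1d pair. Plec and Cryab were named for their roles, outside the naming rule.

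Lamina partners, the membrane proteins and enzymes that work with lamins, also gave 0 calls in either direction in limma, over 12 tested genes of 22 listed and 13 with a probe set. Their median was -0.11, with 5 positive and 7 negative, and 0.17 without J 1a. Rce1 and Icmt, which trim and methylate farnesylated proteins such as B-type lamins, had both J arrays above both NJ arrays, as 13.4% of all genes tested did. With 2 of 12 genes above (16.7%) and 2, Tmpo and Banf1, below (16.7%, against 13.2% of all genes), the list was near the rate of the whole table. Rce1 had signals of 890 and 712 on the J arrays, against 600.3 and 254 on the NJ arrays (0.88 ± 0.63), and Icmt 623 and 715 on the J arrays, against 589 and 447 on the NJ arrays (0.27 ± 0.60). Banf1, a DNA-bridging protein of the lamina, had 4135 and 3999.5 on the J arrays, against 4865 and 4917 on the NJ arrays (-0.22 ± 0.35).

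Tmpo, which encodes the lamin-binding LAP2 proteins, had probe sets that disagreed, as Nes did, but here the brightest did not show the difference and a dimmer one did. Its brightest one, 98982_at, had 1146 and 1014 on the J arrays, against 1224 and 1246 on the NJ arrays, a difference of -0.24 ± 0.45. A second, 92782_at, had 674 and 623 on the J arrays, against 138 and 103 on the NJ arrays. The difference was 2.10 ± 0.74, with 2.12 in the 1a pair and 2.09 in the 1c/1d pair. Its NJ mean of 7.28 lay only just above the brightness cut of 7.22 (log2), so its NJ signals may be background. Another, 92781_at, differed by -0.75 ± 0.98. None of them passed limma at an adjusted p under 0.05. The brightest stands for the gene in the counts above, so the count of genes does not show the second.

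**Figure D4:**
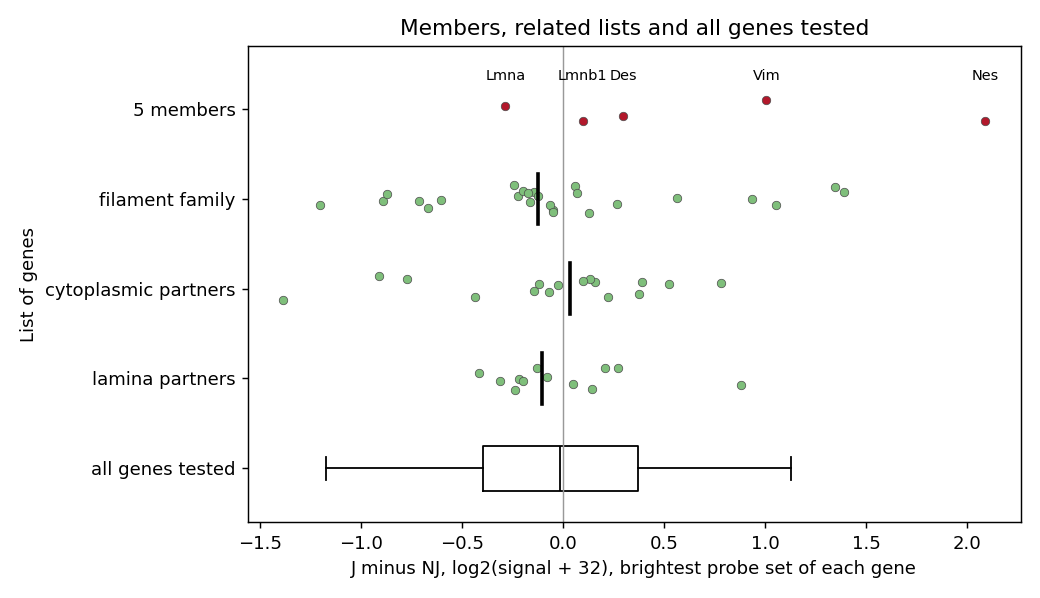
Difference of J minus NJ on the log2(signal + 32) scale for the 5 genes, the rest of the filament family (25 genes), cytoplasmic partners (16), lamina partners (12) and all 6773 genes tested; each point is a gene at its brightest probe set, thick lines are list medians, and the box spans the quartiles of all genes with whiskers at percentiles 5 and 95. Nes, at 2.09, lies beyond the upper whisker (1.13), Vim at 1.01 lies inside it, and the list medians lie between -0.12 and 0.04.

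Markers of the cell types that express nestin or vimentin were measured on the same arrays, all with signals above 0. Higher and lower here mean both J arrays above or below both NJ arrays, which held for 13.4% and 13.2% of all genes tested. Of 8 endothelial genes 1 lay higher on both J arrays and 1 lower, with summed signals of 7981 to 10910.5 in J, against 8171 to 8705 in NJ. Of 8 Schwann cell genes 1 was higher and 1 lower, with sums of 4932 to 6405 in J, against 3505 to 6538 in NJ. Of 5 satellite cell genes 1 was higher and 2 lower, with sums of 3772 to 4051 in J, against 3526 to 3937 in NJ, and Pax7 was not analysed here. The sums of these 3 lists overlapped between groups, as did those of the pericyte, fibroblast and regenerating muscle lists that follow. Of 8 pericyte and smooth muscle genes 3 were higher and 0 lower, with sums of 7483 to 10397 in J, against 4258 to 8790 in NJ. Of 12 fibroblast genes 5 were higher and 0 lower, with sums of 47657 to 114489 in J, against 54784 to 64144 in NJ. Dcn alone gave most of each of these sums, with 82874 and 25304 on J 1a and J 1c, against 42425 and 36133 on NJ 1a and NJ 1d. The fibroblast sums thus mainly follow that gene, and their overlap rests on its low signal on J 1c. Among the fibroblast genes the differences ran from -0.25 (Col3a1) to 3.43 (Postn), the latter the largest of all genes tested. The NJ signals of Postn, 43.3 and 75.2, may be background. Of 6 genes of regenerating or embryonic muscle 3 were higher and 1 lower, while Myh3, embryonic myosin, was too dim to test. The sums of the 6 were 14414 to 18053 in J, against 17988 to 21960 in NJ. Actc1, the lower gene, gave most of each of these sums, with 10731 and 9355 on the J arrays, against 19041 and 14534 on the NJ arrays. The 3 higher genes were Myl4 (1.51 ± 0.48), Myog (1.01 ± 0.70) and Myod1 (0.36 ± 0.42). Of 7 macrophage and leukocyte genes 0 were higher and 1 lower, and their sums of 2620 to 3132 in J lay below those of 3285 to 4343 in NJ. The separation of these sums rests on the lower gene, Fcer1g, with 185 and 43.0 on the J arrays, against 913 and 500.5 on the NJ arrays. Differences were positive for Csf1r (0.05), Adgre1 (0.48) and Lyz2 (0.17). They were negative for Cd68 (-0.69), Cd14 (-0.37) and Tyrobp (-0.39). The part of these cells in the Nes and Vim values was not tested, and in RNA of whole tissue more cells of a type and more RNA per cell cannot be told apart.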

How the data were processed

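Per probe set, the authors deposited 1 linear intensity for each array. How it was computed is not given in the sources used here. After trimming 2% at each end, all 4 columns had a mean of 800.5 to 800.6, so each array had been scaled to a common level. Of 12488 probe sets, 66 controls were left out. Of the other 12422, 10833 had 1 gene symbol in the platform's gene table, 396 had several and 1193 were not in it.

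Intensities were taken as log2(value + 32). The column medians, 8.29 to 8.67, differed by over 0.1, and quantile normalisation followed. Those 9316 probe sets with a mean above percentile 25 were fitted with limma 3.58.1 in R 4.3.3 (lmFit, eBayes with trend, 2 residual degrees of freedom, Benjamini-Hochberg over all probe sets, threshold 0.05). The number of arrays limits the precision. The brightest probe set stood for a gene. The members and lists were chosen with earlier results of these data known. Named genes were every member probe set, Gfap, Prph, Nefl, Nefm, Nefh, Ina, Synm, Lmnb2, Krt8, Krt18 and Krt19, up to 4 partner genes per direction with separate groups, and the 5 genes most like Nes. The alternatives were 2 other scalings, pseudocounts of 1 and 100, 2 other filters, no variance trend, each array left out, a number-format term and the mean of all probe sets. The limma script was tested on simulated data. Python 3.11.15 with matplotlib 3.10.9 drew the figures.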

Additional observations from a re-analysis of the deposited data

How the results depend on the processing

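The count of probe sets called by limma, 0 as reported (198 at an unadjusted p under 0.05), was 8 with the number-format term (4 higher and 4 lower, 555 at an unadjusted p under 0.05) and lay between 0 and 4 when any 1 array was left out, all 4 of them lower without J 1a (216 at an unadjusted p under 0.05). It was 0 under the other alternatives, and 0 genes of the family and partner lists were called under any alternative run. The difference of Nes at its brighter probe set lay between 1.997 and 2.13 over the deposited scale, median centring and the 2 pseudocounts, and that of Vim between 0.83 and 1.12. When any 1 array was left out, Des lay between 0.05 and 0.55, Lmnb1 between -0.84 and 1.003 and Nes relative to the other 4 genes between 1.40 and 2.17. That last value was 0.75 with the probe sets of each gene averaged. Median differences of the lists moved by more than the spread between replicates without J 1a (lamina partners) and without J 1c (filament family). In the contrast by number format limma called 0 probe sets on all 3 scalings, with 1119 to 1435 at an unadjusted p under 0.05. Vim and the dimmer Nes probe set are left out by the filter at the median. The mean of all probe sets was not run as a count of calls. The labels give no pairing of all 4 arrays, because the groups share only the replicate label 1a and J 1c is not paired with NJ 1d. The number-format term pairs the arrays by format. It leaves the differences unchanged, but the ± values given for the members come from the fit without it. Without a detection call in the files, it is not known which dim signals are above background.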
